A study of Homo sapiens with 6 samples.

Results

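Genes for 10 transcription factors of luminal epithelial cells were examined: GATA3, FOXA1, XBP1, SPDEF, TFAP2A, TFAP2B, TFAP2C, GRHL2, ELF3 and EHF. They were chosen by symbol, with earlier results of these data known. All 10 were found among the 26364 symbols in the count files and among the 14665 genes that passed the filter on low counts. RNA was sequenced from ZR-75-30, an established human breast adenocarcinoma line of epithelial cells, in 3 libraries of cells infected with a CDK12 lentivirus (pLVX-CDK12) and 3 libraries of cells infected with the control virus (pLVX). Every cell population had thus received a pLVX virus. No label tells whether each replicate was infected on its own. The p-values set the group difference against the spread between these libraries, which may not include that between separate infections. By its title the series looked for targets of CDK12, a transcription kinase that works with cyclin K on the tail of RNA polymerase II.

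Luminal cells line the milk ducts, and their identity is kept by a small set of DNA-binding proteins. FOXA1 and GATA3 open chromatin and act together with the estrogen receptor. The AP-2 proteins (TFAP2A, TFAP2B, TFAP2C) bind GC-rich sites and activate genes such as ERBB2. GRHL2, ELF3, EHF and SPDEF are epithelial factors, the first of the grainyhead family and the others of the ETS family. XBP1 is abundant in secretory cells and drives genes of protein folding and export in the endoplasmic reticulum.

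The CDK12 libraries held 23628890 to 26543653 counts and the control libraries 21178163 to 25014857. Levels are given as CPM, counts scaled to library size with TMM factors, with the SD over 3 libraries in each group. CDK12 itself averaged 2124 ± 116 CPM in CDK12 libraries and 77.9 ± 4.61 CPM in control libraries. Each library matched its label, although counts per gene do not separate viral from endogenous CDK12. On the 6 values of CDK12 an exact two-sided permutation test gave p = 0.1, and no split of 3 against 3 can give less. KRT8, a simple-epithelium keratin, averaged 1683 CPM in CDK12 libraries and 1937 CPM in control libraries (log2 fold change -0.20; edgeR adjusted p = 0.000171). EPCAM, an epithelial adhesion protein, averaged 185 CPM in CDK12 libraries and 191 CPM in control libraries, while the adhesion gene CDH1 was low at 19.3 CPM in CDK12 libraries and 17.2 CPM in control libraries. The basal keratin genes KRT5 and KRT14 had at most 2 and 3 counts in any library. Other basal genes were expressed: ITGB4 had 1352 to 1972 counts per library, EGFR 167 to 216, ACTA2 100 to 199 and KRT17 7 to 23.

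Of the 10 factors, XBP1, EHF and TFAP2B rose in the CDK12 libraries, TFAP2A and GATA3 fell, and 5 did not pass the test. With upper-quartile or total-count scaling TFAP2A and GATA3 kept their negative sign but did not pass. Of 14 alternative settings, TFAP2A passed under 12 and GATA3 under 8. The test was edgeR's quasi-likelihood test over all genes with Benjamini-Hochberg adjustment and a threshold of 0.05, and each adjusted p below comes from it unless DESeq2 is named. Among all genes tested 35.1% passed, 16.2% higher and 18.9% lower, beside 5 of these 10. Log2 fold changes of the factors ran from -0.14 for TFAP2A to 0.32 for XBP1 with a median of -0.03, and the median over all genes was 0.00. The median size of the change was 0.12 for the factors and 0.14 for all genes. In 7 of the 10 the libraries of both groups did not overlap, against 45.6% of all genes. In 4 of these the CDK12 libraries were higher (22.1% of all genes) and in 3 they were lower (23.6%). In bulk RNA, fewer cells that express a factor and less of its RNA per cell cannot be told apart.

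**Figure D1:**
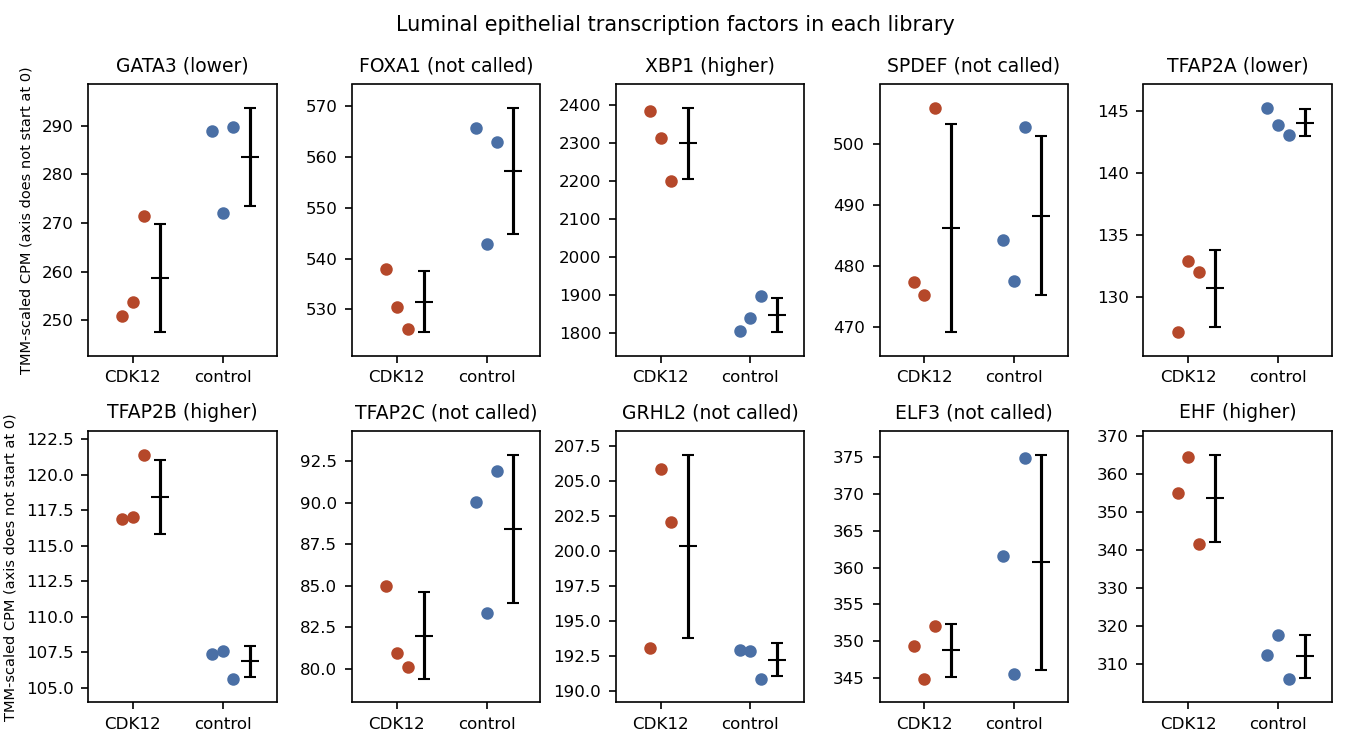
TMM-scaled CPM of the 10 factors in each library, with CDK12 libraries on the left of each panel and control libraries on the right. Points are libraries, the bar beside them is the mean with its SD (n = 3), and vertical axes do not start at 0. The points of XBP1, EHF, TFAP2B and TFAP2A leave clear gaps between groups, while those of SPDEF and ELF3 overlap.

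XBP1 changed most of the 10. It had 2384, 2314 and 2199 CPM in the CDK12 libraries, against 1807, 1840.2 and 1897 CPM in the control libraries. The lowest CDK12 library lay 302 CPM above the highest control library. The means were 2299 ± 93.2 CPM in CDK12 libraries and 1848 ± 45.9 CPM in control libraries (SD, n = 3 each), a rise of 24.4% (log2 fold change 0.32, SE 0.04, 95% interval 0.23 to 0.40; edgeR adjusted p = 8.89e-07). In size this log2 fold change exceeded those of 79.7% of all genes tested. XBP1 passed under each of the 14 alternative settings, with log2 fold changes of 0.29 to 0.36.

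XBP1 messages exist in 2 forms, because the stress sensor encoded by ERN1 cuts a short intron out of the message in the cytoplasm and thereby changes its reading frame. Counts per gene add both forms together. The 26 bases that make the difference are in capitals, from the GENCODE 29 transcript that holds them and the transcript that lacks them. Repeated letters at the ends allow 7 placements of the segment, of which 1 is printed.
XBP1 with the segment: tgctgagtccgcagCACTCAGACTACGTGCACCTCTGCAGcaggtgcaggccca
XBP1 without the segment: tgctgagtccgcagcaggtgcaggccca
The rise is that of total XBP1 message, and the share of each form was not measured.

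A promoter window of XBP1 is shown because it holds, in capitals, a match to the endoplasmic reticulum stress element (ERSE). This element (CCAAT, then 9 bases of any kind, then CCACG) is one that the stress factor ATF6 is known to bind. The window runs from 250 bases before to 50 after the RefSeq start (GRCh38.p14, chr22:28800520-28800819, minus strand).
XBP1: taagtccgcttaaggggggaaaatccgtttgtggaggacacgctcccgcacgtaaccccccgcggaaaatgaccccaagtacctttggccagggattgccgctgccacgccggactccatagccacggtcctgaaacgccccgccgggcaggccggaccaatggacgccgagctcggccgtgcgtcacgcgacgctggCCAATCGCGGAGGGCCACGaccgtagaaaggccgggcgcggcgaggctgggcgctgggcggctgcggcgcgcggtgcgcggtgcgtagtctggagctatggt
The match begins at position -52 relative to the start, and none of the other 7 motifs searched on both strands occurred in this window. Another window of XBP1 (chr22:28800028-28800327) matched the AP-2 motif and not the ERSE. The ERSE occurred in 0.0769% of 35116 RefSeq promoter windows. Listed genes of protein folding and export had 42 windows, of which 9 held the element, overlapping windows of CANX among them. This share carries no test. By gene, 33 of those listed had a window and 7 held the element. Their matches, shown to let the variable middle be compared, are printed in the direction of the motif with its fixed letters in capitals, and HSP90B1 holds 2.
CALR: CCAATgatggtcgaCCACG
CANX: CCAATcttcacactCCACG
CRELD2: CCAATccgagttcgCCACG
HSP90B1: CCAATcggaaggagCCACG
HSP90B1: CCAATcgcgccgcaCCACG
HSPA5: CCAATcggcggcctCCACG
PDIA6: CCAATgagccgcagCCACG
SERP1: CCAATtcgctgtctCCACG
Of these 7 genes 0 rose, 1 fell and 6 did not pass, beside 16.2% higher and 18.9% lower among all genes. The gene that fell was CALR, which encodes a chaperone (log2 fold change -0.19, SE 0.04; edgeR adjusted p = 0.000367). HSPA5, the main chaperone of the compartment, did not pass (log2 fold change -0.05, SE 0.04; edgeR adjusted p = 0.358), nor did the chaperone HSP90B1 (log2 fold change 0.01, SE 0.04; edgeR adjusted p = 0.849). A match is only a run of letters, and no binding was measured.

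Genes of the kind that XBP1 is known to drive were not called higher with it in the main fit. The genes listed, called the XBP1 arm below, may not depend on XBP1 alone. Among them are the 7 that hold the element which ATF6 is known to bind. Of 40 listed genes of folding, translocation and degradation in the endoplasmic reticulum, 39 were tested, and 0 rose, 6 fell and 33 did not pass (median log2 fold change -0.03). Of the 39, 15 had a positive and 24 a negative log2 fold change. Among all genes 16.2% were called higher and 18.9% lower. SDF2L1, a folding cofactor, averaged 9.47 ± 0.142 CPM in CDK12 libraries and 13.4 ± 1.45 CPM in control libraries (log2 fold change -0.51, SE 0.09; edgeR adjusted p = 5.59e-05). WFS1, a membrane protein of the compartment, fell to 277 ± 9.81 CPM in CDK12 libraries, against 318 ± 10.9 CPM in control libraries (log2 fold change -0.20, SE 0.04; edgeR adjusted p = 0.000379). SEC61A1, the channel for nascent proteins, also fell (log2 fold change -0.17). The count of 0 depends on the processing. With upper-quartile factors 4 of these genes rose and 6 fell, beside 3164 higher and 2144 lower of all 14665 genes. With total counts 6 of the list rose and 5 fell, beside 3324 higher and 2064 lower of all genes. EDEM1 and HERPUD1, of the removal of misfolded proteins, were among the listed genes higher under both scalings. With TMM they were the 2 genes of the list that were higher at an unadjusted p under 0.05, and are named after their values were seen (edgeR adjusted p = 0.0591 for EDEM1 and 0.102 for HERPUD1). EDEM1 passed with a filter of 1 CPM in 3 libraries (edgeR adjusted p = 0.0477) and with a replicate block (0.0493). It also passed without CDK12 replicate 1 (log2 fold change 0.16), and SEC63, a translocation factor, without CDK12 replicate 3 (0.14).

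Of the sensors and processing enzymes of the stress response, 7 of 8 were tested, and 0 rose and 2 fell. These calls are 28.6% of those tested, beside 35.1% of all genes. RTCB, the ligase that rejoins the cut XBP1 message, averaged 140.3 ± 7.11 CPM in CDK12 libraries and 168 ± 4.39 CPM in control libraries (log2 fold change -0.26, SE 0.04; edgeR adjusted p = 4.44e-05). ATF6B, a relative of ATF6, fell as well (log2 fold change -0.25). The sensor genes ERN1 (-0.09), ATF6 (-0.04) and EIF2AK3 (-0.04) had log2 fold changes that did not pass. In the ATF4 arm, a branch of the stress response that also answers amino acid shortage, 6 of 14 tested genes rose and 0 fell (median log2 fold change 0.11). That is 42.9% higher, beside 16.2% of all genes, in a list chosen with earlier results of these data known. Leaving out 1 library gave 4 to 5 such genes, beside 1789 to 2310 higher of all genes. Scaling by upper quartile gave 8, beside 3164 higher of all 14665 genes. Scaling by total counts also gave 8, beside 3324. With TMM 2371 of all genes were higher. DDIT3, a stress transcription factor, averaged 60.0 ± 3.42 CPM in CDK12 libraries and 43.5 ± 1.75 CPM in control libraries (log2 fold change 0.46, SE 0.05; edgeR adjusted p = 1.64e-07). PPP1R15A, a phosphatase subunit that restores translation, rose to 338 ± 4.82 CPM in CDK12 libraries, against 285 ± 12.4 CPM in control libraries. PHGDH and CTH, enzymes of serine and cysteine synthesis, rose by 0.34 and 0.33 on the log2 scale. PHGDH did not pass without CDK12 replicate 3 (edgeR adjusted p = 0.0622), control replicate 2 (0.0523) or control replicate 3 (0.0535). The other 8 of the 14 did not pass, among them ATF4 itself (log2 fold change 0.09), ASNS (0.13) and SESN2 (-0.11). Of the 14, 11 had a positive and 3 a negative log2 fold change. ATF4 and ASNS passed with upper-quartile factors or total counts.

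Of the ETS factors EHF rose, while ELF3 and SPDEF did not pass. EHF, an epithelial factor of glands and ducts, had 355, 364 and 342 CPM in the CDK12 libraries, against 312, 318 and 306 CPM in the control libraries. All 3 CDK12 libraries were above all 3 controls, by at least 23.9 CPM (log2 fold change 0.18, SE 0.04, 95% interval 0.10 to 0.26; edgeR adjusted p = 0.000917). EHF passed under each of the 14 alternative settings. A promoter window of EHF (RefSeq, GRCh38.p14, chr11:34632316-34632615, plus strand) is shown because, of the 16 windows of the factors, it is the only window with a match to the GATA motif (AGATAA) or the forkhead motif (TGTTTAC), both in capitals.
EHF: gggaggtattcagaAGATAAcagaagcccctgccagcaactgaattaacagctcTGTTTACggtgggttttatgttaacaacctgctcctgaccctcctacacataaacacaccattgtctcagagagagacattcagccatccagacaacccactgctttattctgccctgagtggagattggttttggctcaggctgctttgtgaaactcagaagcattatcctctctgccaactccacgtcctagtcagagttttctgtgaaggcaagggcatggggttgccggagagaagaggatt
These motifs are common, AGATAA occurring in 10.3% and TGTTTAC in 3.42% of all windows on either strand. The GATA match begins at position -236 and the forkhead match at position -196 relative to that start, without overlap. The other motifs searched were UPRE (TGACGTGG, a site that XBP1 binds; 0.729% of all windows), AP-2 (GCCNNNGGC; 23.2%), ETS (CCGGAAG; 10.3%), grainyhead (AACCGGTT; 0.134%) and the estrogen response element (GGTCA and TGACC with 3 bases between them; 0.057%). Windows were found for 8 of the 10 factors, all except TFAP2C and GRHL2. Windows of GATA3 and XBP1 matched AP-2, and a GATA3 window matched ETS. No window of the 8 factors matched UPRE, grainyhead or the estrogen response element.

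ELF3, an ETS factor of differentiating epithelium, had 349, 345 and 352 CPM in the CDK12 libraries, against 362, 346 and 375 CPM in the control libraries. Control replicate 2 lay within the range of the CDK12 libraries (log2 fold change -0.05, SE 0.04, 95% interval -0.13 to 0.03; edgeR adjusted p = 0.370). SPDEF, a factor of secretory epithelium, had 477, 475 and 506 CPM in the CDK12 libraries, against 484, 478 and 503 CPM in the control libraries. Its groups covered almost the same range (log2 fold change -0.01, SE 0.04, 95% interval -0.09 to 0.08; edgeR adjusted p = 0.923), and the sign of its change turned with the scaling. The ratio of EHF to ELF3 counts in the same library, which needs no scaling, was 1.016, 1.056 and 0.97 in CDK12 libraries and 0.864, 0.919 and 0.817 in control libraries. The groups did not overlap in this ratio, which was chosen after the values were seen and carries no test.

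In the AP-2 family TFAP2B rose and TFAP2A fell. TFAP2B, the AP-2 beta gene, had 117, 117 and 121 CPM in the CDK12 libraries, against 107, 108 and 106 CPM in the control libraries. TFAP2A, the AP-2 alpha gene, had 127, 133 and 132 CPM in the CDK12 libraries, against 145, 144 and 143 CPM in the control libraries. Libraries of the groups did not overlap for either gene, and the gaps were 9.27 CPM for TFAP2B and 10.2 CPM for TFAP2A. The change was positive for TFAP2B (log2 fold change 0.15, SE 0.04, 95% interval 0.06 to 0.24; edgeR adjusted p = 0.00745). It was negative for TFAP2A (log2 fold change -0.14, SE 0.04, 95% interval -0.23 to -0.06; edgeR adjusted p = 0.00939). TFAP2B passed under each of the 14 alternatives. TFAP2A passed under 12, and did not with upper-quartile factors (edgeR adjusted p = 0.0514) or total counts (0.0636). TFAP2C, the AP-2 gamma gene and a known regulator of the estrogen receptor gene, had 85.0, 80.9 and 80.1 CPM in the CDK12 libraries, against 90.0, 83.4 and 91.9 CPM in the control libraries. Control replicate 2 lay within the range of the CDK12 libraries (log2 fold change -0.11, SE 0.05, 95% interval -0.21 to -0.01; edgeR adjusted p = 0.0735). TFAP2C passed without that library (log2 fold change -0.15; edgeR adjusted p = 0.0245) and without CDK12 replicate 1 (-0.13; 0.0348). ERBB2, a known AP-2 target named after its value was seen, averaged 7357 ± 257 CPM in CDK12 libraries and 8656 ± 275 CPM in control libraries (log2 fold change -0.23, SE 0.04; edgeR adjusted p = 8.05e-05).

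The balance within the family can be read inside each library, where scaling has no part. For each TFAP2A count there were 0.919, 0.88 and 0.919 TFAP2B counts in the CDK12 libraries, against 0.739, 0.748 and 0.738 in the control libraries. The mean ratio was 0.9063 ± 0.0225 with CDK12 and 0.7416 ± 0.00549 in controls (SD, n = 3 each), a 1.22-fold difference with no overlap. The ratio of TFAP2B to TFAP2C averaged 1.446 ± 0.0705 in CDK12 libraries and 1.211 ± 0.0724 in control libraries. That of TFAP2A to TFAP2C averaged 1.596 ± 0.0862 in CDK12 libraries and 1.632 ± 0.0856 in control libraries, with overlapping libraries. A ratio shows unequal change and does not say which gene moved, and these pairs too were picked with values in view and have no test. TFAP2A shares 1379 exon bases with antisense genes in GENCODE 29 and ELF3 shares 664, and no source used here states whether counting used strand, so their counts are less certain. The antisense gene TFAP2A-AS1 had 24, 20 and 37 counts in CDK12 libraries and 40, 29 and 32 in control libraries, beside at least 2999 counts for TFAP2A (log2 fold change -0.46, SE 0.24; edgeR adjusted p = 0.142).

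**Figure D2:**
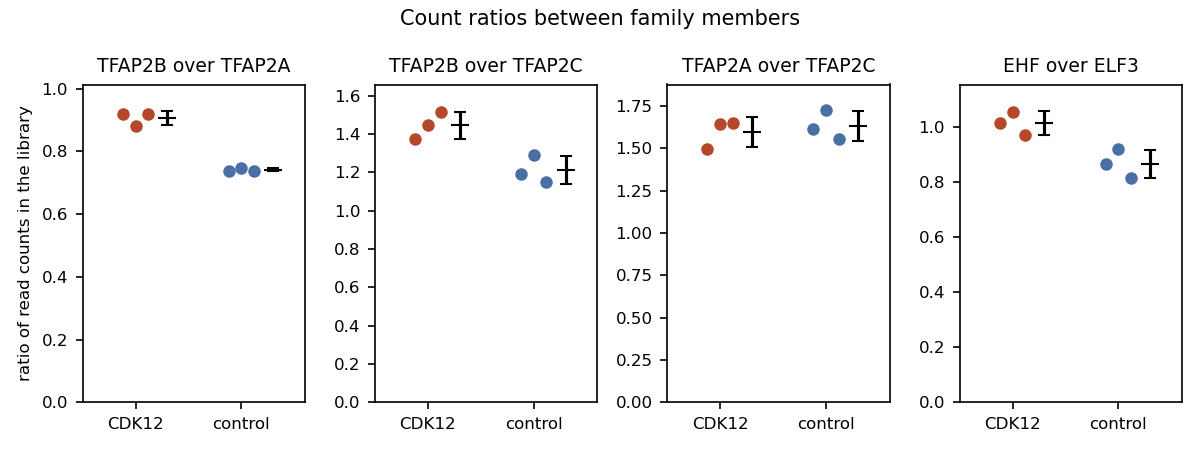
Ratio of the read counts of 2 factors in the same library for the AP-2 genes and for EHF over ELF3, with CDK12 libraries on the left of each panel. Points are libraries, the bar is the mean with its SD (n = 3), and axes start at 0. The groups separate for TFAP2B over TFAP2A and overlap for TFAP2A over TFAP2C.

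GATA3 fell slightly and FOXA1 did not pass. GATA3, the zinc finger factor of luminal differentiation, had 251, 254 and 271 CPM in the CDK12 libraries, against 289, 272 and 289.8 CPM in the control libraries. The groups were 0.603 CPM apart, between CDK12 replicate 3 and control replicate 2 (log2 fold change -0.13, SE 0.04, 95% interval -0.22 to -0.05; edgeR adjusted p = 0.0157). The call was lost without CDK12 replicate 1 (edgeR adjusted p = 0.0504), CDK12 replicate 2 (0.0632), control replicate 1 (0.0762) or control replicate 3 (0.0847), with upper-quartile factors (0.0791) and with total counts (0.0954). GATA3-AS1, a noncoding gene on the opposite strand, had 7.73, 6.26 and 7.34 CPM in CDK12 libraries and 6.15, 5.95 and 6.49 in control libraries (log2 fold change 0.20, SE 0.11; edgeR adjusted p = 0.152). FOXA1, the forkhead factor that opens chromatin for the estrogen receptor, had 538, 530.5 and 526 CPM in the CDK12 libraries, against 566, 543 and 563 CPM in the control libraries. All CDK12 libraries were below all controls, by 4.98 CPM at the closest (log2 fold change -0.07, SE 0.04, 95% interval -0.15 to 0.01; edgeR adjusted p = 0.175).

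GRHL2, the grainyhead factor that maintains epithelial junctions, had 193, 206 and 202 CPM in the CDK12 libraries, against 193, 193 and 191 CPM in the control libraries. CDK12 replicate 1 lay 0.128 CPM above the highest control (log2 fold change 0.06, SE 0.04, 95% interval -0.02 to 0.14; edgeR adjusted p = 0.272). GRHL2 did not pass under any of the 14 alternatives.

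**Figure D3:**
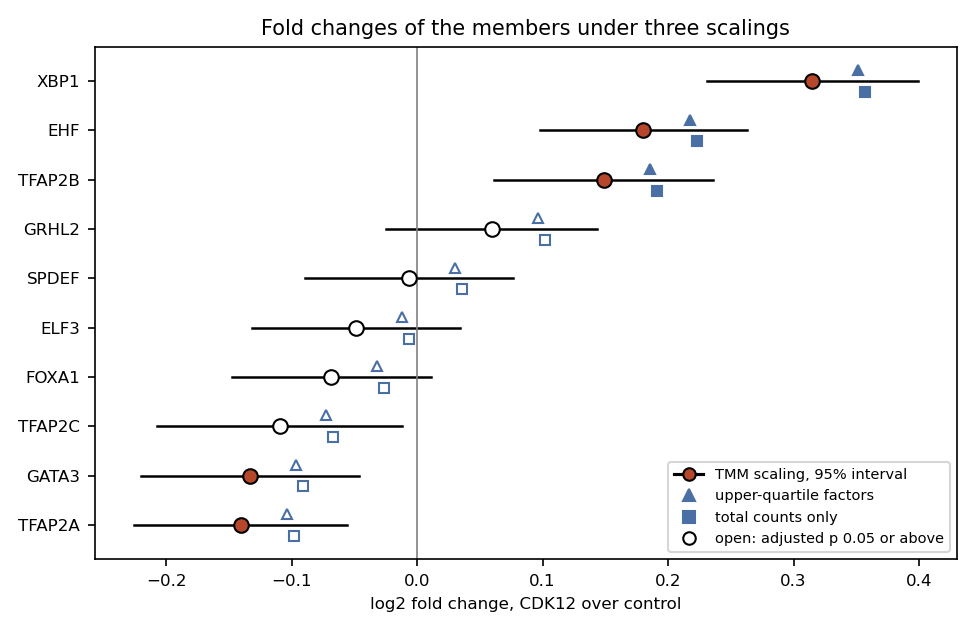
Log2 fold change of each factor, CDK12 over control, with TMM scaling (circles, with 95% intervals), upper-quartile factors (triangles) and total counts (squares); filled symbols passed an adjusted p of 0.05. XBP1, EHF and TFAP2B are filled under all 3 scalings, and TFAP2A and GATA3 with TMM only.

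The factors differed widely in level when counts were set against exon length. In TMM-scaled CPM per kilobase of annotated exon, XBP1 was highest with 759 ± 30.8 in CDK12 libraries and 610.3 ± 15.1 in control libraries. SPDEF followed with 254 ± 8.93 in CDK12 libraries and 255 ± 6.83 in control libraries. FOXA1 was next with 133 ± 1.52 in CDK12 libraries and 139.9 ± 3.13 in control libraries. EHF (80.6 ± 2.61 CPM per kilobase) and GATA3 (75.3 ± 3.25) overlapped in the CDK12 libraries, whereas in control libraries GATA3 (82.5 ± 2.91) stood above EHF (71.2 ± 1.31) without overlap. ELF3 was at 48.5 ± 0.505 in CDK12 libraries and 50.2 ± 2.04 in control libraries, and GRHL2 and TFAP2C came below it, each apart from its neighbours in both groups. TFAP2B (19.3 ± 0.422) and TFAP2A (15.8 ± 0.376) were lowest in CDK12 libraries without overlap, while TFAP2A (17.4 ± 0.131) and TFAP2B (17.4 ± 0.175) overlapped in control libraries. Some of these places depend on the length used. With the longest coding transcript, an alternative added after the data were seen, TFAP2A moved to place 8 in CDK12 libraries and 7 in control libraries, and EHF stood above GATA3 in both groups.

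**Figure D4:**
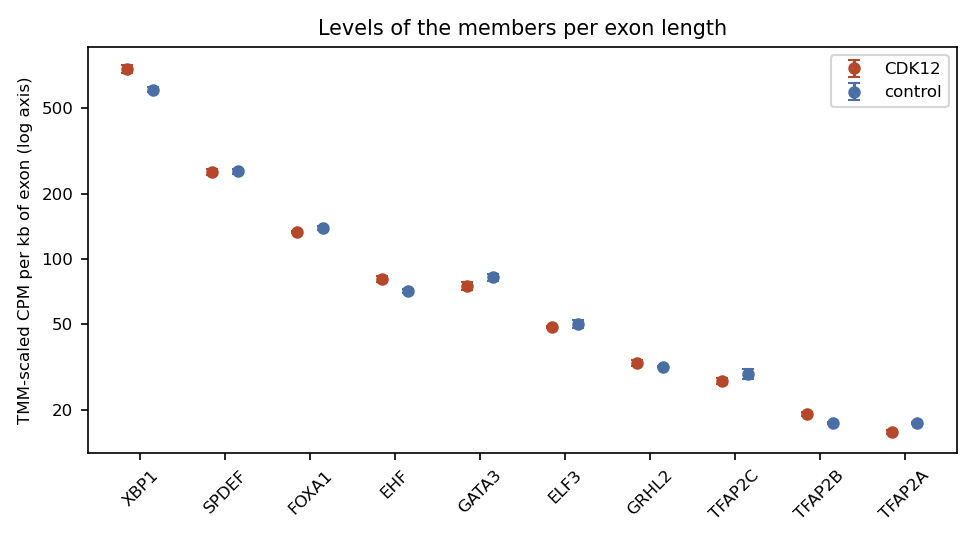
Mean level of each factor in TMM-scaled CPM per kilobase of exon (log axis), CDK12 libraries left of control libraries, with SD over 3 libraries. XBP1 is highest and TFAP2A and TFAP2B are lowest in both groups.

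Of 15 close relatives of the factors 11 were tested, and 3 rose, 1 fell and 7 did not pass (median log2 fold change 0.06). The share called, 36.4%, was near the 35.1% of all genes. GRHL3, a grainyhead relative of skin, fell to 5.94 ± 0.837 CPM in CDK12 libraries, against 9.21 ± 0.280 CPM in control libraries (log2 fold change -0.63, SE 0.11; edgeR adjusted p = 3.45e-05). GRHL1 averaged 49.0 ± 2.27 CPM in CDK12 libraries and 47.7 ± 0.498 CPM in control libraries and did not pass. FOXA3, a forkhead relative known from liver, rose (log2 fold change 0.30, SE 0.09; edgeR adjusted p = 0.00924), though not without control replicate 2 (edgeR adjusted p = 0.0753). ELF5, the ETS factor of milk-producing cells, had 5 to 24 counts per library, and TFAP2E, an AP-2 relative, 9 to 35. Both were called higher, at 1.24 for ELF5 and 0.89 for TFAP2E on the log2 scale. Neither passed with the DESeq2 Wald test (adjusted p = 0.0534 for ELF5 and 0.0857 for TFAP2E). ELF5 was also lost without CDK12 replicate 3 (edgeR adjusted p = 0.0717) or control replicate 1 (0.0523). TFAP2E was lost without CDK12 replicate 1 (edgeR adjusted p = 0.0779), CDK12 replicate 3 (0.0521), control replicate 1 (0.123) or control replicate 2 (0.0946). GATA2, GATA4 and GATA6 had log2 fold changes of 0.03, 0.11 and 0.01 and did not pass. FOXA2 and TFAP2D had 0 counts in every library.

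Of 20 cofactors and cooperating factors tested, 1 rose, 6 fell and 13 did not pass (median log2 fold change -0.06), beside 16.2% higher and 18.9% lower among all genes. TLE1, a corepressor that forkhead factors can recruit, averaged 24.9 ± 0.791 CPM in CDK12 libraries and 37.5 ± 2.34 CPM in control libraries (log2 fold change -0.59, SE 0.06; edgeR adjusted p = 2.56e-08). LMO4, a LIM adaptor of mammary epithelium, averaged 68.8 ± 3.02 CPM in CDK12 libraries and 87.0 ± 2.23 CPM in control libraries (log2 fold change -0.34, SE 0.05; edgeR adjusted p = 3.04e-06). NR2F2, a nuclear receptor, and RUNX1, a transcription factor of mammary luminal cells, were lower by log2 fold changes of -0.20 and -0.18. MYB, an estrogen-dependent factor, rose to 20.4 ± 0.0967 CPM in CDK12 libraries, against 17.1 ± 0.135 CPM in control libraries (log2 fold change 0.26, SE 0.07; edgeR adjusted p = 0.00372). The progesterone receptor gene PGR was low, at 1.19 ± 0.368 CPM in CDK12 libraries and 1.28 ± 0.339 CPM in control libraries, and did not pass (edgeR adjusted p = 0.737). The estrogen receptor gene ESR1 did not pass either (log2 fold change -0.13, SE 0.05; edgeR adjusted p = 0.0594), but did without control replicate 3 (0.0382).

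Among genes that luminal factors and estrogen are known to control, 27 were tested, and 5 rose, 10 fell and 12 did not pass (median log2 fold change -0.04). The share called higher, 18.5%, was near the 16.2% of all genes, and 37% were called lower, beside 18.9% of all genes. This list too was chosen with earlier results of these data known. SCGB2A2, the secreted mammaglobin, fell to 9681 ± 387 CPM in CDK12 libraries, against 12421 ± 329.9 CPM in control libraries (log2 fold change -0.36, SE 0.04; edgeR adjusted p = 1.63e-07). CCND1, a cyclin of the cell cycle, KRT7, a luminal keratin, and TSPAN1, a tetraspanin, were lower too (log2 fold changes -0.31, -0.29 and -0.26). MUC1, the luminal surface mucin, rose to 405 ± 15.6 CPM in CDK12 libraries, against 321 ± 18.2 CPM in control libraries (log2 fold change 0.34, SE 0.04; edgeR adjusted p = 1.05e-06). RET, a receptor kinase gene that estrogen induces, was higher by 0.37 on the log2 scale. With upper-quartile factors 7 rose and 9 fell, beside 3164 higher and 2144 lower of all 14665 genes. With total counts 7 rose and 8 fell, beside 3324 higher and 2064 lower.

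Of 24 epithelial junction and splicing genes, which include known targets of GRHL2, 0 rose, 14 fell and 10 did not pass (median log2 fold change -0.20). That is 58.3% lower, beside 18.9% of all genes, while GRHL2 itself did not pass. The list was chosen with earlier results of these data known, so this share is a description and carries no test. SPINT1, a protease inhibitor, averaged 362 ± 11.9 CPM in CDK12 libraries and 459.9 ± 17.0 CPM in control libraries (log2 fold change -0.35, SE 0.04; edgeR adjusted p = 2.02e-07). CLDN4, a tight junction claudin, averaged 415 ± 19.9 CPM in CDK12 libraries and 519 ± 19.0 CPM in control libraries (log2 fold change -0.32, SE 0.04; edgeR adjusted p = 1.23e-06). LSR, a protein of tricellular junctions, fell to 128 ± 4.57 CPM in CDK12 libraries, against 159 ± 7.06 CPM in control libraries. EPCAM (-0.05) and CDH1 (0.16) had log2 fold changes that did not pass. With upper-quartile factors or total counts 14 fell and 2 rose, CDH1 and the splicing regulator ESRP1, and CDH1 also passed without CDK12 replicate 1. Of all genes, 3164 were higher and 2144 lower with upper-quartile factors, and 3324 higher and 2064 lower with total counts.

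**Figure D5:**
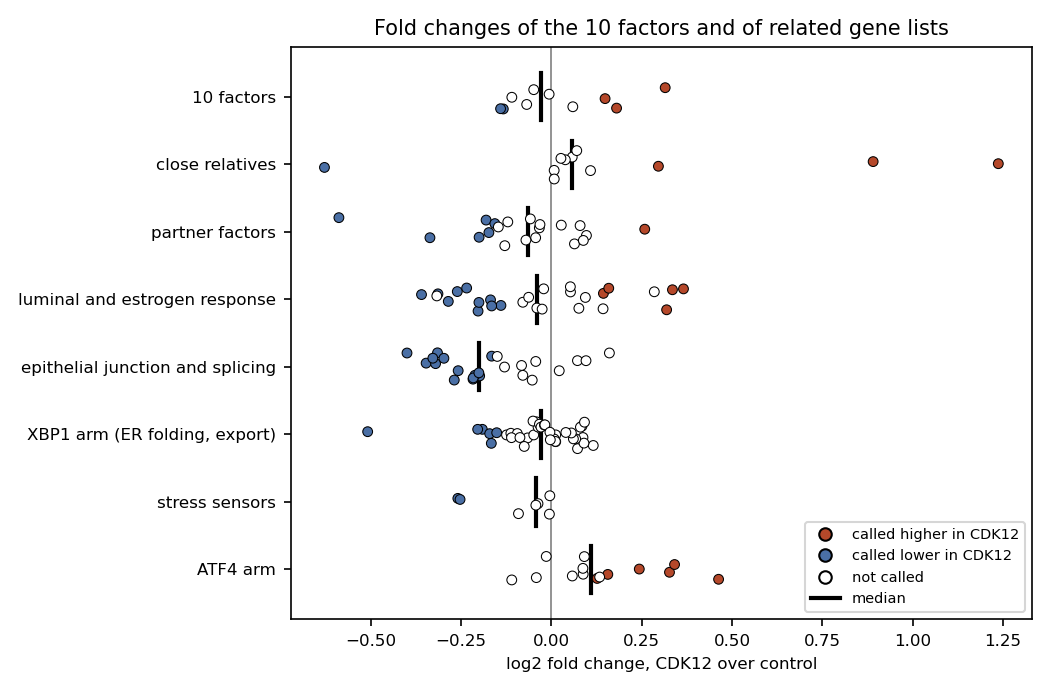
Log2 fold changes, CDK12 over control, of the 10 factors and of the tested genes of 7 related lists with TMM scaling; each point is a gene, its colour gives the call, and bars are medians. Epithelial junction genes have a median of -0.20 with 14 called lower, ATF4 arm genes a median of 0.11 with 6 called higher, and XBP1 arm genes a median of -0.03. The factors and the lists were chosen with earlier results of these data known.

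Genes of other cell states are given beside these results, and of all genes 16.2% were called higher and 18.9% lower. Of 11 mesenchymal genes 4 were tested, with 1 higher and 2 lower. FN1, fibronectin (-0.43), and SNAI2 (-0.47) had negative log2 fold changes that passed, SNAI1 a positive one (0.52), and ZEB1, a repressor opposed to GRHL2, averaged 2.17 CPM in CDK12 libraries and 2.18 CPM in control libraries and did not pass. Of 13 basal genes 7 were tested, with 1 higher and 4 lower, and their summed level was 76.5 to 87.3 CPM in CDK12 libraries and 105 to 114 CPM in control libraries. ITGB4, an integrin gene, made up most of that sum at 56.1 CPM in CDK12 libraries and 81.0 CPM in control libraries. TP63, a basal factor, fell to 0.280 ± 0.0432 CPM in CDK12 libraries, against 2.26 ± 0.145 CPM in control libraries (log2 fold change -2.99, SE 0.26; edgeR adjusted p = 6.17e-10). ITGB4, KRT17 and EGFR also fell, and ACTA2 rose. Of 12 markers of blood, vessel, stromal and red cells 3 were tested, with 1 higher (COL1A1) and 1 lower (PTPRC). Summed levels were 62.5 to 73.6 CPM in CDK12 libraries and 51.1 to 56.1 CPM in control libraries. COL1A1, a collagen gene, made up most of that sum at 63.8 CPM in CDK12 libraries and 48.2 CPM in control libraries, while COL1A2 and DCN had at most 8 and 2 counts in any library. PTPRC, a gene of blood cells, averaged 0.358 CPM in CDK12 libraries and 2.96 CPM in control libraries (log2 fold change -3.02, SE 0.23; edgeR adjusted p = 4.51e-11). HBA1 and HBB were at 0 in every library. The part of these genes in the results above was not tested.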

How the data were processed

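Polyadenylated RNA of 6 ZR-75-30 libraries was sequenced with a strand-marking kit, per the labels' protocols. The deposited files hold raw counts per gene symbol, whole numbers with unequal totals. The submitters' processing notes name CASAVA 1.8, STAR 2.6.0c, featureCounts, Subread 1.6.2 and hg19. Annotation, strand setting and handling of multi-mapping reads: not given in the sources used here.

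Genes were kept with filterByExpr of edgeR 4.0.16 (count of at least 10, total of at least 15), scaled by TMM and tested with the quasi-likelihood F test in R 4.3.3, with group as the only term. Benjamini-Hochberg adjustment covered the 14665 genes kept, and the threshold was 0.05. The SE is the log2 fold change divided by the square root of F, and 95% intervals are not adjusted. The fit was tested on simulated data. Alternatives used DESeq2 1.42.0, limma 3.58.1, other scalings and filters, a replicate block, and each library left out. For a gene at 0, a limit of 3 counts is 0.112 to 0.144 CPM, for counting error only. Libraries of 1 group differed by more than counting noise (chi-square per degree of freedom 2.74 to 4.55), so none was treated as a duplicate.

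The 10 factors and the gene lists were chosen with earlier results of these data known. Named were the factors, CDK12, antisense partners, set receptors, sensors and relatives, and from each list up to 4 genes of lowest p in its commoner direction and up to 2 in the other. Genes named as markers, for a motif match or for a change between settings are additional, and 2 genes that the rule names are not reported here. Exon lengths and overlaps came from GENCODE 29 (GRCh38), promoter windows from RefSeq (GRCh38.p14).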

Additional observations from a re-analysis of the deposited data

How the results depend on the processing

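XBP1, EHF and TFAP2B kept their direction and stayed past the threshold under all 14 alternatives. FOXA1, GRHL2 and ELF3 kept their direction and did not pass under any. Over all genes 2371 were higher and 2772 lower; this balance turned with upper-quartile factors (3164 higher, 2144 lower) and total counts (3324 higher, 2064 lower), which moved the median log2 fold change of all genes to 0.04 and 0.05. Counts over all genes without 1 library ran from 1789 to 2310 higher and from 2199 to 2735 lower. The number of factors called lower was 0 with upper-quartile factors and 0 with total counts, and 1 to 3 without 1 library. The log2 fold changes were then -0.10 for GATA3 and -0.10 for TFAP2A with upper-quartile factors, and -0.0908 for GATA3 and -0.10 for TFAP2A with total counts. SPDEF, which passed under no setting, turned to 0.0304 with upper-quartile factors and 0.0361 with total counts. Without 1 library, GATA3 ran from -0.17 to -0.11, TFAP2C from -0.15 to -0.0781 and SPDEF from -0.0352 to 0.0181. The cause of these differences was not tested.

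Among the lists, with upper-quartile factors the higher genes numbered 2 partners, 4 of the XBP1 arm, 2 junction genes and 2 basal genes, and with total counts 2, 6, 2 and 2. The XBP1 arm had 1 higher gene (EDEM1) with a filter of 1 CPM in 3 libraries, and 1 higher and 9 lower with the replicate block. The close relatives had 1 higher gene with that filter, which removes 2 of them from the test, and 1 with the DESeq2 Wald test. Without 1 library, the numbers of higher genes ran from 0 to 1 for the XBP1 arm, from 0 to 1 for junction genes, from 1 to 2 for basal genes and from 1 to 3 for close relatives.

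Replicate numbers were not taken to pair libraries, since the deviations of same-numbered libraries from their group means had correlations of -0.06, 0.05 and 0.03. With the replicate block, 2330 genes were higher and 2776 lower, 3 factors were higher and 2 lower, and XBP1 had a log2 fold change of 0.31. With 3 libraries a group and a SE near 0.04, changes of the factors well under 0.1 on the log2 scale were not detectable.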
